A study of Mus musculus with 12 samples.

Results

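The 10 genes described here are used as markers of the mural cells of blood vessels. They were followed across wild-type and Cd163-deficient mouse hearts, with and without pressure overload. They are Acta2, Myh11, Tagln, Cnn1, Pdgfrb, Notch3, Cspg4, Abcc9, Kcnj8 and Rgs5. They were picked by symbol and make up 10 of the 55357 gene identifiers in the count table. All 10 passed the minimum on low counts. The hearts came from male mice on a C57BL/6J background, operated on at 8 weeks of age, and their poly(A) RNA was sequenced, with 3 libraries per group. The groups were Cd163-/- mice after transverse aortic constriction (KO TAC), wild-type mice after the same surgery (WT TAC), Cd163-/- mice after sham surgery (KO sham) and wild-type mice after sham surgery (WT sham). In TAC the aortic arch is tied over a 27-gauge needle, so that the left ventricle ejects against a narrowed vessel, and sham surgery leaves out the ligature. Cd163 encodes the haemoglobin scavenger receptor of tissue macrophages, and the sources used here do not say how the deletion was made. The labels do not tie libraries to animals, so p-values reflect only how these samples varied, which may be technical.

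Smooth muscle cells wrap arteries and arterioles, and pericytes sit on capillaries. Both share the basement membrane of the endothelium and set the width of the vessels. Smooth muscle contracts with its own actin and myosin isoforms, whose genes are switched on by serum response factor (SRF) and its partner myocardin through CArG boxes in their promoters. Pericytes are recruited by endothelial PDGF-B acting on the PDGF receptor beta, and Notch3 on mural cells answers ligands on the endothelium. The ATP-sensitive potassium (KATP) channel made of Kir6.1 and SUR2 hyperpolarises mural cells and relaxes vessels, and RGS5 shortens G protein signals that constrict them. In whole-heart RNA, fewer cells of a type and less RNA per cell cannot be told apart, nor is it known which cells a transcript came from.

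Some libraries did not lie with their group. Totals were 14150109 to 22602225 counts per library. KO sham replicate 1 lay with the KO TAC libraries on the first principal component (44.6, against 40.4 to 44.9 for KO TAC), while the other KO sham libraries lay at −27.1 and −24.3. Transcripts of the mitochondrial genome took 44.0 to 51.3% of counts in KO TAC, 24.8 to 32.5% in WT TAC, 51.0% in KO sham replicate 1, 31.6 and 30.5% in the other KO sham libraries and 35.1 to 36.9% in WT sham libraries. WT TAC replicate 1 lay at 6.69 on the same component, and the other WT TAC libraries at −23.8 and −17.9. Cd163 itself had 3.47 to 4.07 CPM in KO TAC against 13.7 to 29.5 CPM in WT TAC libraries, and 3.14 to 4.60 CPM in KO sham against 14 to 16.1 CPM in WT sham libraries. Results are given with and without KO sham replicate 1. That library was picked out by its place among the KO TAC libraries in these same data. Leaving it out therefore favours a difference between KO TAC and KO sham, and an interaction, so such calls are descriptions. The fit shares its estimate of the spread over all groups. Leaving that library out can thus lower the SE in comparisons that do not use it, and calls gained there are descriptions too. Over all genes, calls for TAC against sham in KO went from 0 to 7708. Those for KO against WT after TAC went from 3219 to 6585, and for TAC against sham in WT from 5 to 1058. WT TAC replicate 1 was likewise picked out in these same data, as the WT TAC library nearest to KO TAC on that component. Leaving it out favours a difference between KO TAC and WT TAC, so calls in fits without it are descriptions too. Levels are TMM-scaled CPM (counts scaled to library size), in replicate order 1, 3, 5 for TAC and 1, 2, 3 for sham, and fold changes are on the log2 scale with ± SE. Adjusted p-values are from edgeR's quasi-likelihood test with Benjamini-Hochberg adjustment over all 15804 tested genes, with a threshold of 0.05. KO TAC libraries enter both the comparison with KO sham and that with WT TAC, and WT TAC libraries likewise enter 2 of the comparisons, so fold changes of the same gene are not independent across comparisons.

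Rgs5 was lower in KO TAC than in WT TAC hearts, at 399 ± 24.9 against 692 ± 43.1 CPM (SD, n = 3 each), 1.74 times lower. It was the 1 member of 10 past the threshold in any comparison in edgeR with all 12 libraries. For KO TAC against WT TAC, 20.4% of all genes passed. The Rgs5 call was lost in 8 of the 12 fits that leave out a library. Abcc9 and Kcnj8, the subunits of the vascular KATP channel, also had all 3 KO TAC libraries below all 3 WT TAC libraries. Over all genes, 46.9% had groups that did not overlap there, in either direction. Abcc9 and Kcnj8 passed the threshold without KO sham replicate 1, in a fit that called 40.7% of all genes for KO TAC against WT TAC. The receptors Pdgfrb and Notch3, the proteoglycan Cspg4 and the smooth muscle contractile genes passed in no comparison in edgeR with all libraries or without KO sham replicate 1.

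The promoters of Acta2, Abcc9, Kcnj8 and Rgs5 are printed because Acta2 is the standard CArG-driven gene of the panel and the other 3 are the members called with all libraries or without KO sham replicate 1. The windows run from 250 bases before to 50 bases after the RefSeq start site, 5′ to 3′ on the gene's strand, in build GRCm38.p6. They are chr19:34255324-34255623 on the minus strand for Acta2, chr6:142702225-142702524 on the minus strand for Abcc9, chr6:142571565-142571864 on the minus strand for Kcnj8 and chr1:169655251-169655550 on the plus strand for Rgs5. Capitals mark CArG boxes with at most 1 departure and the sequence TGGGAA, the core bound by the Notch effector RBPJ.
Acta2: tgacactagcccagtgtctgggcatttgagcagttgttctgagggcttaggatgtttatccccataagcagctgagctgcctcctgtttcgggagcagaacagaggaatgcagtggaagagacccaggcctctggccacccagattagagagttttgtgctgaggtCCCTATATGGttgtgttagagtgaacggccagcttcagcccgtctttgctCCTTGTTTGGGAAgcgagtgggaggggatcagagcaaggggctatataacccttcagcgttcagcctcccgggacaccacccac
Abcc9: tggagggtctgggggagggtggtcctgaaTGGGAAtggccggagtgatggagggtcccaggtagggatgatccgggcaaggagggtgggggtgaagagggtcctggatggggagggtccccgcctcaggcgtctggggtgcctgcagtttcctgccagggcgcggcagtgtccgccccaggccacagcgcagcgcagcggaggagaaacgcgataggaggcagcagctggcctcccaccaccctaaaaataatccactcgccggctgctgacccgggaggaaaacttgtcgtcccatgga
Kcnj8: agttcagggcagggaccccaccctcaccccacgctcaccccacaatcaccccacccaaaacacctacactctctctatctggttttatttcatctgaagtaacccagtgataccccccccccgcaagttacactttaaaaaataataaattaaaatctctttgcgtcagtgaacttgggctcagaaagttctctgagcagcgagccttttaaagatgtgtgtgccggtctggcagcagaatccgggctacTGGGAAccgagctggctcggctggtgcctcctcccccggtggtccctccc
Rgs5: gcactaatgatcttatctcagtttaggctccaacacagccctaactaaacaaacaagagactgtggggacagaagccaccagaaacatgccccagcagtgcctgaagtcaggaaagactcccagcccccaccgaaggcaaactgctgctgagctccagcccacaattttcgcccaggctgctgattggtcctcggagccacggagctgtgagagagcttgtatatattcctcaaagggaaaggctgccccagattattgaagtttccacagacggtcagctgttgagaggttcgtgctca
RefSeq promoter entries matched 7 of the 10 members, and Myh11, Tagln and Pdgfrb had none. Both strands were searched. No member's window held a CArG box without a departure, which 1.63% of the 32851 promoter windows hold. Acta2 held 2 with 1 departure, CCCTATATGG starting at −84 and CCTTGTTTGG starting at −34, and 9.98% of all windows hold at least 1 such match. The second of these overlaps a TGGGAA starting at −27. Abcc9 held TGGGAA at −221 and Kcnj8 at position 1, a sequence found in 25.6% of all windows. The Rgs5, Cnn1, Notch3 and Cspg4 windows held neither. These matches describe letters only.

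Few members were called by edgeR with all libraries or by DESeq2, and other fits called more. With 12 libraries, edgeR called 0 of 10 members for TAC against sham in WT (0.0316% of all genes), 0 for TAC against sham in KO (0%), 0 for KO against WT after sham (0.00633%), 1 for KO against WT after TAC (20.4%) and 0 for the interaction (0%), where the TAC effect of WT hearts is subtracted from that of KO hearts. At an unadjusted p under 0.05, in the same order, there were 1, 2, 1, 3 and 0 members. The shares of all genes at that limit were 16.2%, 30.9%, 13.5%, 40.8% and 9.19%. DESeq2 called 0, 1, 0, 1 and 0 members, beside 3.21%, 12%, 1.39%, 30.2% and 0.613% of the genes it gave an adjusted p. The limma-voom fit with sample weights called 1, 6, 1, 5 and 1 members, beside 6.8%, 63%, 14.9%, 48.2% and 31.8% of all genes. Its calls held Acta2, Tagln, Myh11, Notch3 and Pdgfrb, whose limma-voom values are given with each gene. The sample weights count less those libraries that vary more about their group. These calls are therefore not separate from those of fits that leave such libraries out. Without KO sham replicate 1, edgeR called 1, 3, 0, 3 and 1 members, all of them lower, beside 6.53%, 47.6%, 0.241%, 40.7% and 12.1% of all genes. In both edgeR fits the share of members called for KO against WT after TAC, 1 and 3 of 10, was no higher than that of all genes. With WT TAC replicate 1 left out as well, the counts were 1, 5, 0, 6 and 2 members, beside 6.18%, 55.5%, 1.84%, 53.8% and 36.1% of all genes. That fit added 3 members for KO against WT after TAC, all higher, namely Myh11 at 0.99 (adjusted p = 0.0166), Tagln at 1.47 (adjusted p = 0.0242) and Pdgfrb at 0.35 (adjusted p = 0.00883). These calls are descriptions, as both libraries left out were picked in these same data. The median log2 fold change of the 10 members was −0.08 for KO against WT after TAC, beside −0.02 over all genes, and −0.21 for TAC against sham in KO, beside −0.02 over all genes.

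**Figure D1:**
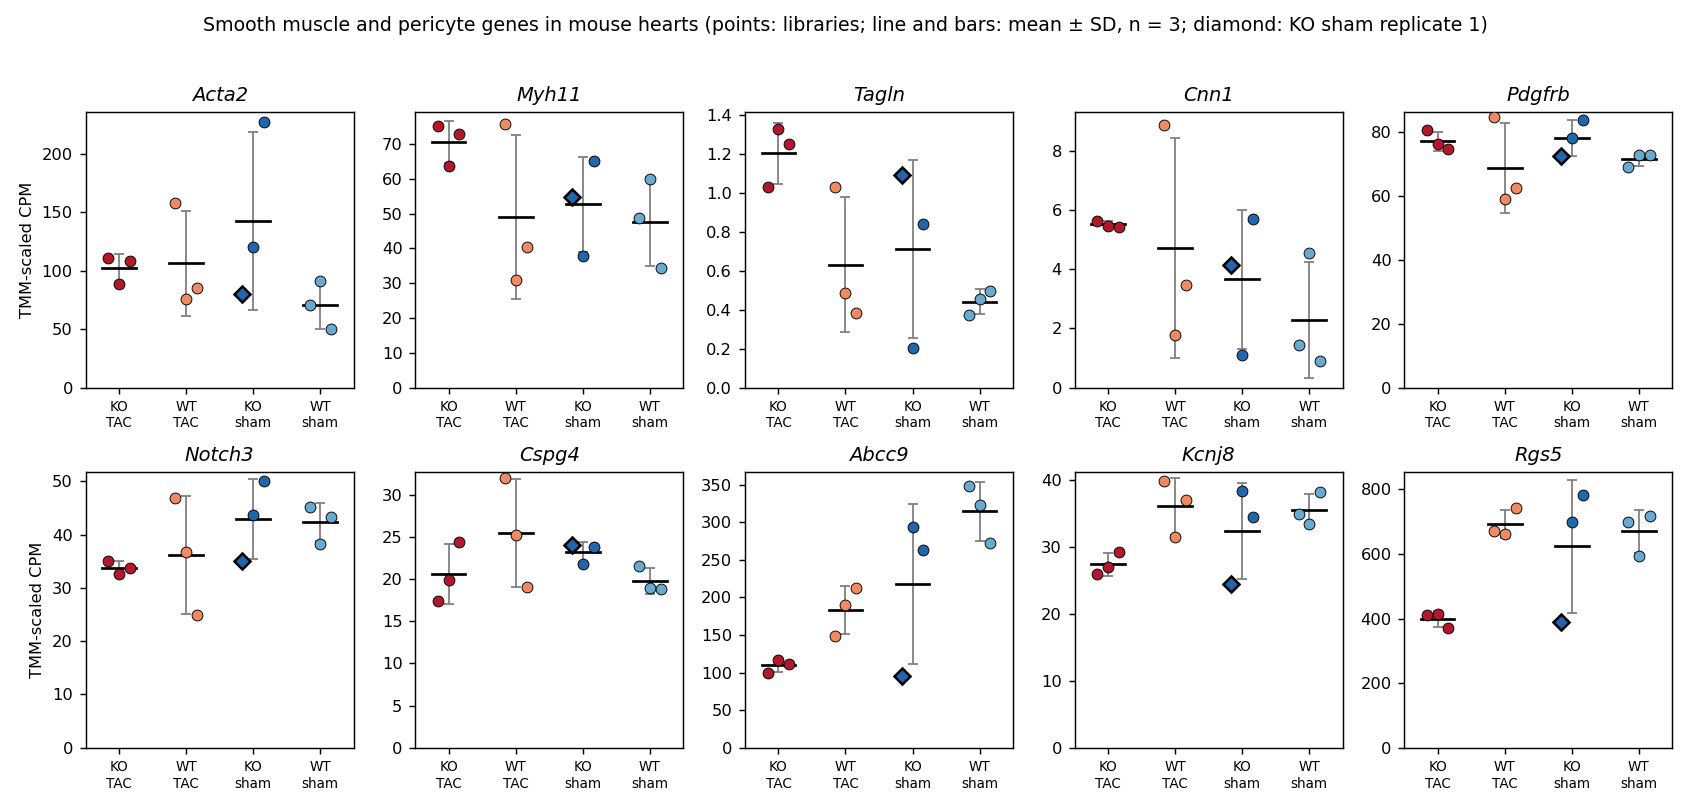
TMM-scaled CPM of the 10 members in each of the 12 libraries, 1 panel per gene, with groups from left to right KO TAC, WT TAC, KO sham and WT sham; points are libraries, lines and bars are the mean ± SD, and the diamond is KO sham replicate 1. Rgs5 lies between 370 and 415 CPM in KO TAC, below all WT TAC libraries at 662 to 741 CPM, and KO sham replicate 1 lies at 389 CPM.

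Rgs5 (ENSMUSG00000026678), a regulator of G protein signalling and one of the most abundant pericyte transcripts, lies on chromosome 1 (GRCm38 169655501 to 169695813, plus strand). It had 411, 415 and 370 CPM in KO TAC libraries and 672, 662 and 741 CPM in WT TAC libraries. It had 389, 698 and 782 CPM in KO sham and 700, 594 and 717 CPM in WT sham libraries. The KO TAC libraries lay below all others apart from KO sham replicate 1, which fell among them. The log2 fold change of KO TAC against WT TAC was −0.80 ± 0.24 (adjusted p = 0.040), and −0.80 ± 0.13 (adjusted p = 0.000939) without KO sham replicate 1. The call was lost when single libraries were left out, at adjusted p of 0.10, 0.114 and 0.115 without KO TAC replicate 1, 3 or 5, of 0.104 and 0.115 without WT TAC replicate 3 or 5, and of 0.0615, 0.0567 and 0.0568 without WT sham replicate 1, 2 or 3. The fold change itself stayed between −0.83 and −0.74 over all 12 such fits. Against KO sham, KO TAC stood at −0.64 ± 0.24 (adjusted p = 0.117) with all libraries. Without KO sham replicate 1, the KO sham library most like KO TAC, it was lower by 0.90 ± 0.15 on the log2 scale (adjusted p = 0.000635). In that fit 47.6% of all genes passed in this comparison. In WT hearts TAC against sham gave 0.05 ± 0.24 (adjusted p = 0.933). The difference between these TAC effects was −0.69 ± 0.34 with all libraries (adjusted p = 0.559) and passed without KO sham replicate 1 (−0.94 ± 0.20, adjusted p = 0.0136). After sham, KO against WT was −0.11 ± 0.24 (adjusted p = 0.832).

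Abcc9 (ENSMUSG00000030249) encodes SUR2, the sulphonylurea receptor that forms the regulatory subunit of the vascular KATP channel and, as a splice form, of the channel of heart muscle. It had 100, 117 and 112 CPM in KO TAC libraries and 149, 190 and 212 CPM in WT TAC libraries. It had 95.8, 294 and 263 CPM in KO sham and 349, 323 and 272 CPM in WT sham libraries. All KO TAC libraries lay below all WT TAC libraries, and all WT TAC libraries below all WT sham libraries, while KO sham replicate 1 lay below the whole KO TAC group. With all libraries no comparison passed in edgeR. KO TAC against WT TAC was −0.74 ± 0.33 (adjusted p = 0.112), TAC against sham was −0.99 ± 0.33 in KO (adjusted p = 0.107) and −0.78 ± 0.33 in WT (adjusted p = 0.281). With that library left out the standard errors were smaller and Abcc9 passed in all 3. It was 1.68 times lower in KO TAC than in WT TAC (−0.75 ± 0.16, adjusted p = 0.00323), 2.55 times lower in KO TAC than in KO sham (−1.35 ± 0.17, adjusted p = 0.000173) and 1.71 times lower in WT TAC than in WT sham (−0.78 ± 0.16, adjusted p = 0.0202). The TAC effects of both genotypes differed by −0.57 ± 0.23 there, which did not pass (adjusted p = 0.121). With WT TAC replicate 1 left out as well that difference was −0.71 ± 0.18, which passed (adjusted p = 0.00679). After sham, KO against WT was −0.53 ± 0.33 (adjusted p = 0.456), and −0.17 ± 0.18 (adjusted p = 0.841) without that library.

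Kcnj8 (ENSMUSG00000030247), which encodes the pore subunit Kir6.1, is the neighbour of Abcc9 on chromosome 6, 16.2 kb away in GRCm38, and both lie on the minus strand. It had 25.9, 27.0 and 29.2 CPM in KO TAC and 39.8, 31.4 and 36.9 CPM in WT TAC libraries. KO sham libraries had 24.4, 38.3 and 34.4 CPM and WT sham libraries 34.8, 33.4 and 38.1 CPM. The KO TAC libraries again lay below the WT TAC libraries without overlap, and KO sham replicate 1 lay below them all. KO TAC against WT TAC was −0.40 ± 0.17 (adjusted p = 0.0990) with all libraries. In the fit without KO sham replicate 1, Kcnj8 was 1.32 times lower in KO TAC than in WT TAC (−0.40 ± 0.12, adjusted p = 0.0209) and 1.33 times lower in KO TAC than in KO sham (−0.41 ± 0.14, adjusted p = 0.0234). In WT hearts TAC against sham was 0.03 ± 0.17 (adjusted p = 0.945). Over the 12 libraries Rgs5 correlated with Kcnj8 at r = 0.88 and with Abcc9 at r = 0.84, and Abcc9 with Kcnj8 at r = 0.75, on log2 CPM. Over the 8 libraries other than KO TAC and KO sham replicate 1 these were 0.28, −0.05 and −0.24. With the rest of the panel, over the 12 libraries, each was lowest with Tagln and highest with Notch3. These ranges were −0.71 to 0.42 for Rgs5, −0.64 to 0.41 for Kcnj8 and −0.83 to 0.44 for Abcc9. The points share library and depth, and the values are descriptions.

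The other KATP subunits are Kcnj11, the Kir6.2 pore of heart muscle, and Abcc8, the receptor SUR1. Kcnj11 averaged 30.6 ± 1.50 CPM in KO TAC and 77.7 ± 18.1 CPM in WT TAC hearts (SD, n = 3 each) and was 2.54 times lower (−1.34 ± 0.40, adjusted p = 0.0380). Leaving out any KO TAC or WT sham library, or WT TAC replicate 3 or 5, ended this call, at adjusted p of up to 0.121. Abcc8 averaged 30.6 ± 3.43 CPM in KO TAC and 26.4 ± 4.0 CPM in WT TAC, at 0.21 ± 0.15 (adjusted p = 0.301). Some markers of heart muscle were also lower. Of 10 cardiomyocyte markers 5 were called lower in KO TAC than in WT TAC and none higher, with a median of −0.65. Over all genes 20.4% were called there, in either direction. Other markers were close in KO TAC and WT TAC, namely Tnni3 (4564 against 4601 CPM), Ttn (3620 against 3665 CPM) and Myl2 (8696 against 9035 CPM). Their summed level was 39705 to 42749 CPM in KO TAC, 61494 to 63741 CPM in WT TAC, 31049 to 59849 CPM in KO sham (31049 in replicate 1) and 65251 to 67545 CPM in WT sham libraries, and none was at 0 in any group. The share of mitochondrial transcripts given above was also higher in the KO TAC libraries and KO sham replicate 1. Their part in the values of Abcc9, Kcnj8 and Rgs5 was not tested.

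**Figure D2:**
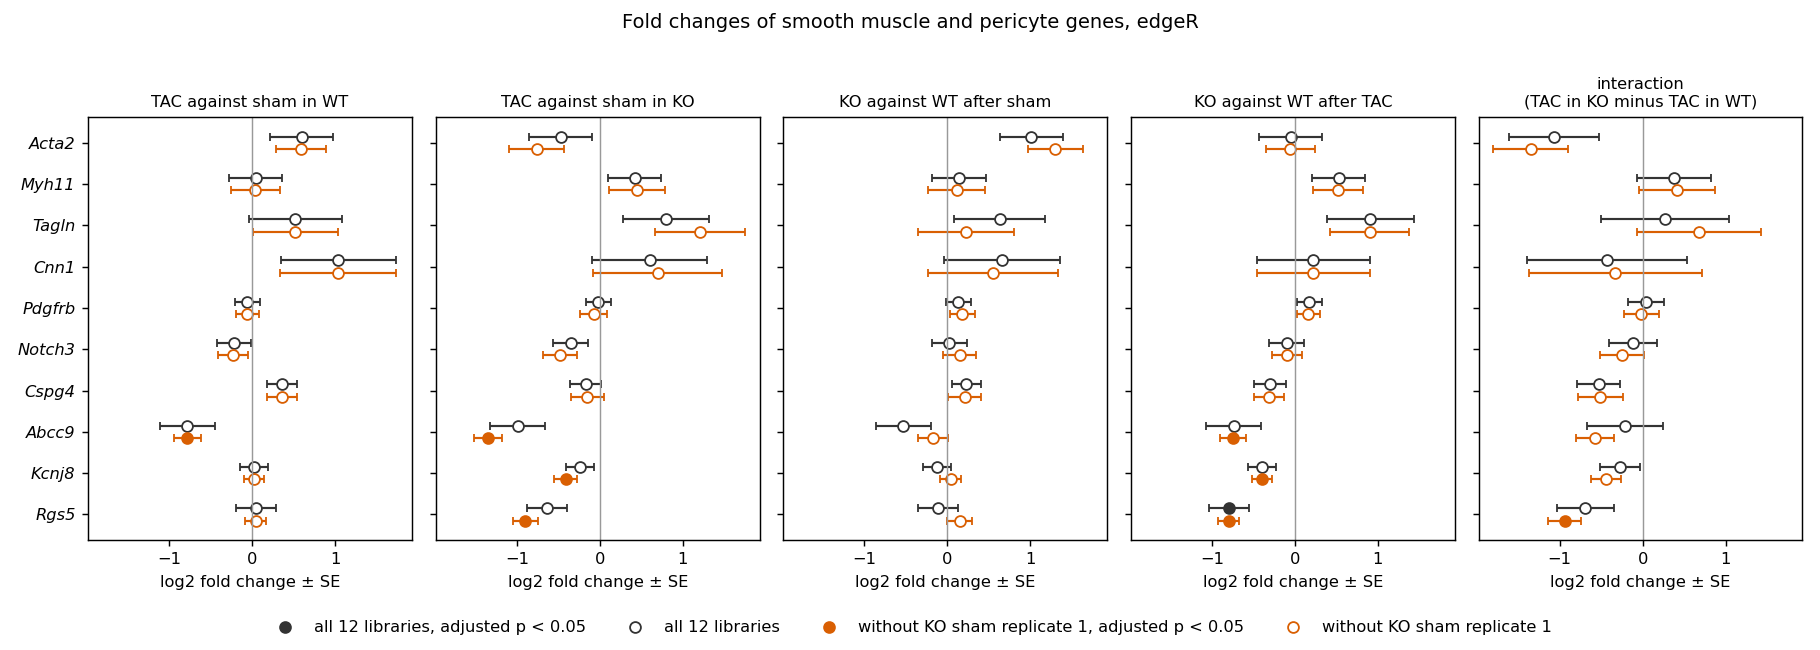
Log2 fold changes with SE of the 10 members in the 5 comparisons, with all libraries and without KO sham replicate 1; filled points pass an adjusted p of 0.05. Rgs5 passes in KO TAC against WT TAC with all libraries at −0.80, and without that library Abcc9 passes in 3 comparisons and Kcnj8 in 2.

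The surface receptors and the proteoglycan of mural cells passed in no comparison in edgeR with all libraries. Pdgfrb (ENSMUSG00000024620), the PDGF receptor through which pericytes are recruited, had 80.6, 76.3 and 74.9 CPM in KO TAC and 84.9, 59.0 and 62.6 CPM in WT TAC libraries. It had 72.5, 78.1 and 83.8 CPM in KO sham and 69.2, 72.8 and 72.8 CPM in WT sham libraries. The groups overlapped in all 4 pairwise comparisons. Pdgfrb stood at 0.17 ± 0.15 for KO TAC against WT TAC (adjusted p = 0.430), at −0.02 ± 0.15 for TAC against sham in KO (adjusted p = 0.950), at −0.06 ± 0.15 for the same in WT (adjusted p = 0.862) and at 0.13 ± 0.15 for KO sham against WT sham (adjusted p = 0.682). For KO TAC against WT TAC limma-voom put it at 0.30, which passed (adjusted p = 0.0463).

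Notch3 (ENSMUSG00000038146), the Notch receptor of arterial smooth muscle and pericytes, had 35.0, 32.5 and 33.8 CPM in KO TAC and 46.9, 36.7 and 24.9 CPM in WT TAC libraries. It had 35.1, 43.7 and 50.0 CPM in KO sham and 45.2, 38.3 and 43.3 CPM in WT sham libraries. All KO TAC libraries lay below all KO sham libraries, by less than 1 CPM from KO sham replicate 1, and the log2 fold change was −0.35 ± 0.21 (adjusted p = 0.260). Without that library it was −0.48 ± 0.20 (adjusted p = 0.0680). It passed when WT TAC replicate 1 was left out as well (−0.47, adjusted p = 0.0118) and in limma-voom with sample weights (−0.49, adjusted p = 0.00326). Between KO TAC and WT TAC it was −0.10 ± 0.21 (adjusted p = 0.736). Exons of the antisense gene Gm17276 cover 6.03% of its exonic bases, and reads from the shared part cannot be told apart unless strand was counted.

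Cspg4 (ENSMUSG00000032911), the NG2 proteoglycan of pericytes, had 17.4, 19.9 and 24.4 CPM in KO TAC and 31.9, 25.2 and 19.1 CPM in WT TAC libraries. It had 24.0, 21.8 and 23.8 CPM in KO sham and 21.5, 18.9 and 18.8 CPM in WT sham libraries. The KO sham libraries lay above the WT sham libraries without overlap, with a log2 fold change of 0.23 ± 0.18 (adjusted p = 0.542). KO TAC against WT TAC was −0.30 ± 0.19 (adjusted p = 0.231), and TAC against sham in WT was 0.36 ± 0.18 (adjusted p = 0.346). The summed level of Pdgfrb, Notch3 and Cspg4 was 129 to 133 CPM in KO TAC, 107 to 164 CPM in WT TAC, 132 to 158 CPM in KO sham and 130 to 136 CPM in WT sham libraries, so the groups overlapped.

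No contractile member passed in edgeR with all libraries, and their levels varied widely within most groups. Acta2 (ENSMUSG00000035783), smooth muscle alpha-actin, had 111, 88.9 and 108 CPM in KO TAC and 158, 75.9 and 85.4 CPM in WT TAC libraries. It had 79.9, 120 and 227 CPM in KO sham and 70.4, 91.4 and 49.8 CPM in WT sham libraries. Its largest difference was KO sham against WT sham, 142 ± 75.8 against 70.5 ± 20.8 CPM (SD, n = 3 each), with overlapping groups and a log2 fold change of 1.01 ± 0.38 (adjusted p = 0.316). With KO sham replicate 1 left out it was 1.30 ± 0.33 (adjusted p = 0.172). In limma-voom with sample weights Acta2 was called higher in KO sham than in WT sham (1.35, adjusted p = 0.00473) and lower in KO TAC than in KO sham (−0.84, adjusted p = 0.0135). The TAC effect was −0.47 ± 0.38 in KO (adjusted p = 0.396) and 0.60 ± 0.38 in WT (adjusted p = 0.431), with an interaction of −1.07 ± 0.54 (adjusted p = 0.569), and of −1.35 ± 0.45 (adjusted p = 0.0672) without KO sham replicate 1. The log2 fold change of KO TAC against WT TAC was −0.05 ± 0.38 (adjusted p = 0.928).

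Actins resemble each other, so the sequences were compared. The longest stretch that Acta2 transcripts share exactly with those of another actin was 56 bases, with Actg1, and 23 bases with Actc1, against reads of 150 bases. Actc1, the cardiac alpha-actin, fell in KO TAC, at 2144 ± 119 CPM against 7671 ± 1753 CPM in WT TAC (−1.84 ± 0.45, adjusted p = 0.0243), a call lost without any single KO TAC library or WT TAC replicate 3 or 5 (adjusted p up to 0.0995). Acta1, an alpha-actin of skeletal muscle and fetal heart, had 1158 ± 82.9 CPM in KO TAC and 1755 ± 702 CPM in WT TAC (−0.60 ± 0.38, adjusted p = 0.251). Actg2, the enteric smooth muscle gamma-actin, had 2.23 ± 0.19 CPM in KO TAC and 1.90 ± 2.06 CPM in WT TAC (0.22 ± 0.68, adjusted p = 0.826; SD of CPM with n = 3 each). Of the non-muscle actins, Actb had 1011 ± 126 CPM in KO TAC and 427 ± 149 CPM in WT TAC and was higher (1.24 ± 0.40, adjusted p = 0.0479), a call lost in 8 of the 12 fits that leave out a library (adjusted p up to 0.156) and with library totals, and Actg1 was at 0.78 ± 0.29 (adjusted p = 0.0685). Actb was named after its values were seen.

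Myh11 (ENSMUSG00000018830), the smooth muscle myosin heavy chain, had 75.2, 63.7 and 72.8 CPM in KO TAC and 75.7, 30.8 and 40.5 CPM in WT TAC libraries. It had 54.9, 37.9 and 65.1 CPM in KO sham and 48.8, 60.0 and 34.3 CPM in WT sham libraries. The KO TAC libraries were close to each other, and WT TAC replicate 1 lay just above them. KO TAC against WT TAC was 0.53 ± 0.32 (adjusted p = 0.226). Without WT TAC replicate 1 it was 1.00 ± 0.27, which passed (adjusted p = 0.0217), as did 33.6% of all genes in that fit. It was called by limma-voom, whose sample weights count less the libraries far from their group (0.86, adjusted p = 0.0274). DESeq2 put it at 0.54, which did not pass (adjusted p = 0.216). TAC against sham was 0.42 ± 0.32 in KO (adjusted p = 0.360) and 0.04 ± 0.32 in WT (adjusted p = 0.956).

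Cnn1 (ENSMUSG00000001349), the actin-binding calponin of smooth muscle, had 5.65, 5.48 and 5.44 CPM in KO TAC and 8.90, 1.77 and 3.48 CPM in WT TAC libraries. It had 4.16, 1.11 and 5.72 CPM in KO sham and 1.43, 4.54 and 0.895 CPM in WT sham libraries. Its coefficient of variation was 2.07% in KO TAC, 78.8% in WT TAC, 64.0% in KO sham and 86.0% in WT sham. TAC against sham in WT was 1.04 ± 0.69 (adjusted p = 0.454), and KO TAC against WT TAC 0.22 ± 0.68 (adjusted p = 0.822).

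Tagln (ENSMUSG00000032085), the actin-bundling protein SM22-alpha, had the lowest level of the panel. It had 1.03, 1.33 and 1.25 CPM in KO TAC and 1.03, 0.484 and 0.381 CPM in WT TAC libraries. It had 1.09, 0.205 and 0.843 CPM in KO sham and 0.371, 0.454 and 0.497 CPM in WT sham libraries. Raw counts were 15 to 19 in KO TAC, 7 to 21 in WT TAC, 5 to 18 in KO sham and 7 to 10 in WT sham libraries, so each value rests on few reads. The lowest KO TAC library lay above the highest WT TAC library only in digits beyond those printed. Its log2 fold change for KO TAC against WT TAC was 0.91 ± 0.53 (adjusted p = 0.210). For TAC against sham in KO it was 0.80 ± 0.52 (adjusted p = 0.303), and 1.21 ± 0.54 (adjusted p = 0.0820) without KO sham replicate 1. TAC against sham in KO was called by limma-voom with sample weights (1.11, adjusted p = 0.0295) and by edgeR with WT TAC replicate 1 left out as well (1.22, adjusted p = 0.0404). In the GRCm38 annotation, 1349 of its 1988 exonic bases, 67.9%, are covered by exons of Gm48529 and Pcsk7 on the opposite strand. How reads in such stretches were counted is not stated in the sources used here, so the level of Tagln is uncertain. Pcsk7 had 25.5 to 30.2 CPM in KO TAC and 15.8 to 20.1 CPM in WT TAC libraries.

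Groups that did not overlap were no more frequent among the members than among all genes. For KO TAC against WT TAC, 4 of 10 members did not overlap, Tagln higher and Abcc9, Kcnj8 and Rgs5 lower, against 46.9% of all genes. For KO sham against WT sham it was 1 member, Cspg4 (22.5% of all genes). For KO TAC against KO sham it was 1 member, Notch3 (22.4%), and for WT TAC against WT sham 1 member, Abcc9 (27.1%).

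**Figure D3:**
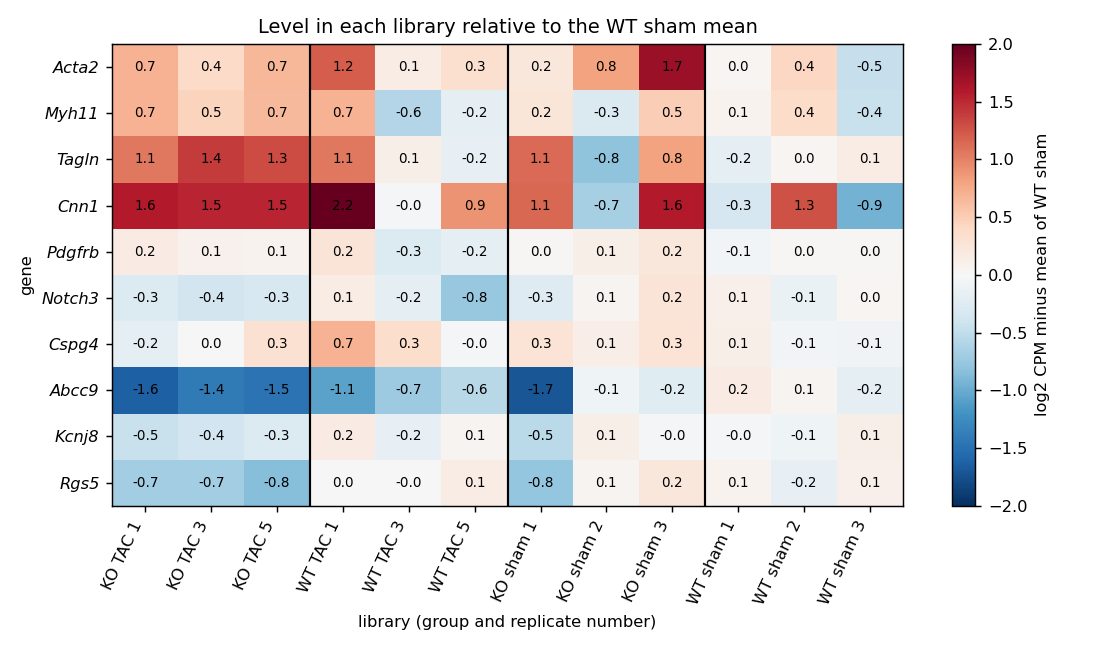
Log2 CPM of the 10 members in the 12 libraries minus each gene's mean over the WT sham libraries (colour and number in each cell), with groups from left to right KO TAC, WT TAC, KO sham and WT sham. Rgs5, Abcc9 and Kcnj8 are low together in the KO TAC libraries and in KO sham replicate 1.

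Per kilobase of exon, Rgs5 was the most abundant member in every group, at 87.7 CPM per kb in KO TAC, 152 in WT TAC, 137 in KO sham and 147 in WT sham. Acta2 came second in KO TAC, WT TAC and KO sham, with 46.8, 48.5 and 64.7 CPM per kb. In WT sham hearts Abcc9 came second with 37.6 ± 4.70 and Acta2 next with 32.1 ± 9.47 CPM per kb, which differ by less than the spread. In KO TAC hearts Pdgfrb, at 14.1 ± 0.541 CPM per kb, and Abcc9, at 13.1 ± 1.01 CPM per kb, were likewise apart by no more than the larger SD. Pdgfrb and Kcnj8 were also neighbours within their spread in WT TAC, KO sham and WT sham hearts. Myh11 and Notch3 held ranks 6 and 7 in every group, Cspg4 and Cnn1 ranks 8 and 9 in either order, and Tagln was last at 0.222 to 0.605 CPM per kb.

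Other genes of the pathways were looked at by list, the number called being of KO TAC against WT TAC unless stated. For that comparison edgeR called 20.4% of all genes with all libraries and 40.7% without KO sham replicate 1. The counts of this and the later lists stand beside these shares. In the other 4 comparisons edgeR with all libraries called no gene of these lists apart from Acta1, which rose in WT TAC against WT sham (3.27 ± 0.42, adjusted p = 0.0194). The other tools called more of them. For TAC against sham in KO, where limma-voom called 63% of all genes, it called 3 further contractile genes higher and 2 lower. It also called 5 further pericyte genes higher and 6 lower, 2 SRF and myocardin genes higher and 6 lower, and 8 Notch genes higher and 3 lower. DESeq2 called 3 SRF and myocardin genes lower and 2 Notch genes higher there, beside 12% of the genes it gave an adjusted p. Of 13 further contractile genes of smooth muscle 2 were higher and none lower, with a median of 0.37. They were Csrp1, a LIM protein of the actin cytoskeleton, at 73.7 ± 5.71 CPM in KO TAC against 39.7 ± 8.71 CPM in WT TAC (0.89 ± 0.19, adjusted p = 0.0200), and Flna, the actin cross-linker filamin A (0.85 ± 0.23, adjusted p = 0.0325). The counts were 6 higher and 1 lower without KO sham replicate 1, and 1 higher with library totals in place of TMM, a scaling that put the median of all genes at −0.24. Of 15 further pericyte genes 1 was higher and none lower, with a median of 0.18. It was the transcription factor Ebf1, at 34.7 ± 2.30 CPM in KO TAC and 19.6 ± 3.92 CPM in WT TAC (0.82 ± 0.20, adjusted p = 0.0249), and the counts were 2 higher and 4 lower without KO sham replicate 1, and 0 higher and 2 lower with library totals, where the list's median was −0.04. The summed level of these pericyte genes was 249 to 262 CPM in KO TAC and 214 to 304 CPM in WT TAC libraries.

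Regulators of the contractile genes went both ways, and whole-heart RNA does not tell which cells their transcripts came from. Of 9 tested genes of the SRF and myocardin list 2 were higher and 2 lower, with a median of −0.78. Srf itself was lower, at 20.1 ± 3.57 CPM in KO TAC against 45.8 ± 14.5 CPM in WT TAC (−1.19 ± 0.31, adjusted p = 0.0280), as was the SRF partner Elk1 (−1.15 ± 0.36, adjusted p = 0.0454). Klf4, a repressor of the contractile programme, was higher, at 105 ± 8.92 CPM in KO TAC against 41.1 ± 8.48 CPM in WT TAC (1.35 ± 0.24, adjusted p = 0.0163). Mrtfa, an actin-sensing co-activator of SRF, was also higher (0.62 ± 0.19, adjusted p = 0.0438). The counts were 2 higher and 5 lower without KO sham replicate 1, and 1 higher and 2 lower with library totals.

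Of 13 genes of the Notch pathway 4 were higher and none lower, with a median of 0.57; there were 7 higher without KO sham replicate 1, and none was called with library totals, where the median was 0.34. The ligand Jag2 had 107 ± 6.14 CPM in KO TAC and 46.7 ± 18.2 CPM in WT TAC (1.19 ± 0.37, adjusted p = 0.0433), and the endothelial ligand Dll4 38.8 ± 5.63 CPM in KO TAC and 22.0 ± 2.19 CPM in WT TAC (0.82 ± 0.26, adjusted p = 0.0470). The receptors Notch1 (0.57 ± 0.14, adjusted p = 0.0262) and Notch2 (0.58 ± 0.19, adjusted p = 0.0487) were the others. Jag1, a ligand of Notch3, was at 0.37 ± 0.23 (adjusted p = 0.245). None of 5 PDGF genes was called. Pdgfb, the ligand of Pdgfrb, had 71.1 ± 10.6 CPM in KO TAC and 44.5 ± 8.50 CPM in WT TAC (0.67 ± 0.26, adjusted p = 0.0777), and passed without KO sham replicate 1 (adjusted p = 0.0123). Pdgfra, the receptor of fibroblasts, was at 0.11 ± 0.15 (adjusted p = 0.574). None of 5 tested other RGS proteins of the R4 family, to which RGS5 belongs, was called, with a median of 0.59.

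Markers of other cells differed between KO TAC and WT TAC as well. Of 5 atrial markers 4 were higher, and their summed level was 643 to 2354 CPM in KO TAC, 251 to 545 CPM in WT TAC, 263 to 2987 CPM in KO sham and 81.3 to 1731 CPM in WT sham libraries. All 4 tested adipocyte markers were higher, with sums of 18.2 to 23.7 CPM in KO TAC, 0.147 to 1.02 CPM in WT TAC, 3.80 to 22.9 CPM in KO sham and 1.19 to 8.44 CPM in WT sham libraries. Of 5 mesothelial markers 1 was higher, with sums of 27.0 to 37.7 CPM in KO TAC, 4.57 to 7.62 CPM in WT TAC, 7.15 to 68.0 CPM in KO sham and 6.02 to 20.7 CPM in WT sham libraries. None of 12 endothelial markers was called, with a median of 0.52 and sums of 1903 to 2035 CPM in KO TAC, 1174 to 1740 CPM in WT TAC, 1503 to 2135 CPM in KO sham and 1227 to 1613 CPM in WT sham libraries. Of 11 fibroblast markers 3 were higher, of 4 tested Schwann cell markers 1 was higher, of 5 macrophage markers 1 was lower, and of 10 activated fibroblast markers none was called. Leaving out KO sham replicate 1 gave 4 atrial, 4 adipocyte, 5 mesothelial, 6 endothelial, 3 fibroblast, 2 Schwann cell and 1 activated fibroblast marker higher, and 7 cardiomyocyte and 1 macrophage marker lower. No marker of these lists was without a count throughout a group. Their part in the values of the mural genes was not tested. Of the 32 list genes called, all were lost when KO TAC replicate 1, KO TAC replicate 3 or WT TAC replicate 3 was left out, when the calls over all genes were 58, 43 and 85 in place of 3219. Without WT TAC replicate 5 there were 31 lost, without KO TAC replicate 5 there were 25, without WT sham replicate 1, 2 or 3 there were 12, 11 and 11, without KO sham replicate 3 there were 4 and without WT TAC replicate 1 there was 1, Myl3. Their fold changes kept their direction in all 12 of these fits.

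**Figure D4:**
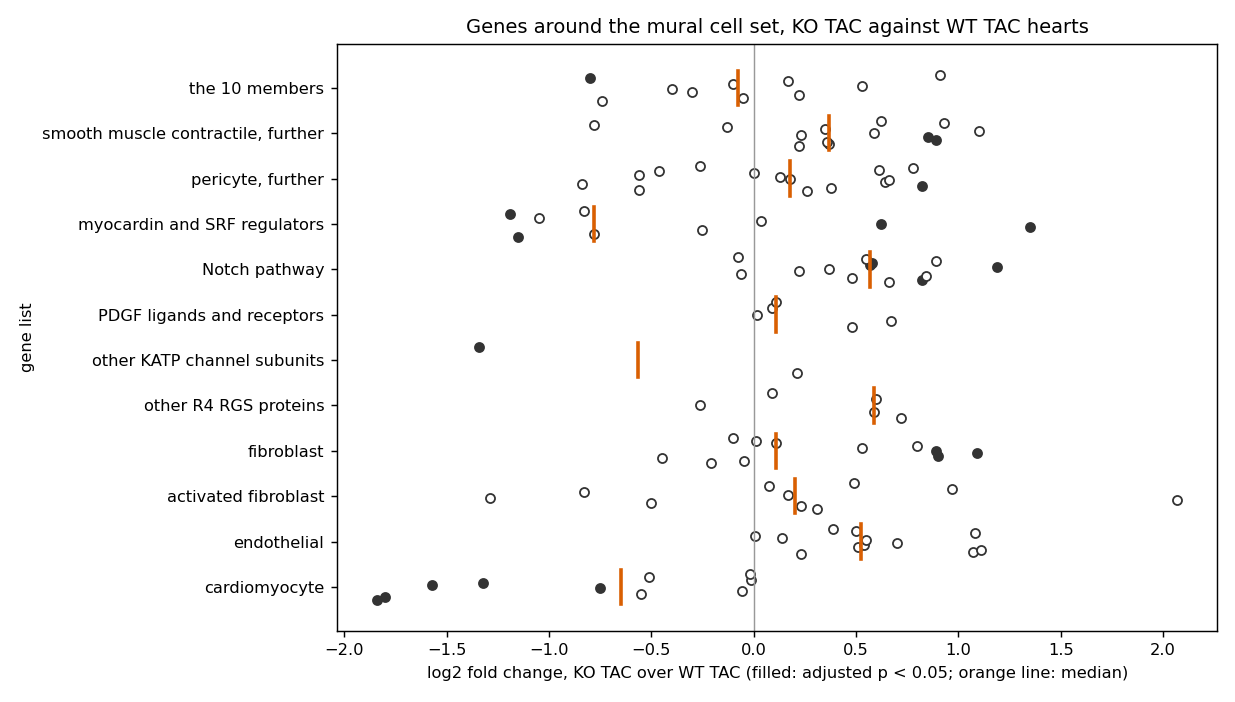
Log2 fold changes of KO TAC against WT TAC for the 10 members and for genes of 11 other lists, 1 row per list; points are genes, filled where the adjusted p is under 0.05, and the bar is the list's median. Cardiomyocyte markers have a median of −0.65 and Notch genes one of 0.57.

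The genes whose levels followed Myh11 most closely over the 12 libraries, on log2 CPM, were Actg2 (r = 0.926), Susd5 (r = 0.919), Mylk (r = 0.884), Myl9 (r = 0.879) and Clcn6 (r = 0.868). Actg2, Mylk and Myl9 are themselves genes of smooth muscle contraction, and in the 8 libraries other than KO TAC and KO sham replicate 1 the values were between 0.871 and 0.947. The genes nearest to Rgs5 were Cycs (r = 0.982), Tmem14c (r = 0.980), Qdpr (r = 0.977), Asna1 (r = 0.975) and Tmem126a (r = 0.974), none of them on the mural lists. In the same 8 libraries these were between 0.580 and 0.826. Cycs encodes cytochrome c of the respiratory chain. These are descriptions over libraries that share depth and scaling, with no test.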

How the data were processed

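The authors deposited raw read counts, whole numbers per Ensembl gene, for each of 12 libraries. HISAT2 is the aligner, per the submitters' processing notes; its version, the counting program, the genome build and the strand setting are not stated in the sources used here. Symbols and gene structures came from GENCODE on GRCm38, which may not be the authors' build, and 52081 of 55357 identifiers had a symbol. Total counts were 14150109 to 22602225 per library.

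These counts were fitted with edgeR 4.0.16 (R 4.3.3) after TMM scaling and filterByExpr by group, in 1 robust quasi-likelihood fit of 12 libraries with 8 residual degrees of freedom, which left 15804 genes. Correlations used log2 CPM with a prior count of 2. The procedure was tested on simulated data with the same dispersion for all genes and no library off its group. That test therefore does not cover the libraries that lay apart here. Alternatives were other scalings, no filter, a replicate block, only the groups compared, DESeq2 1.42.0, limma-voom (limma 3.58.1) with sample weights, and libraries left out. The members and lists were chosen with earlier results of these data known. The rule for naming genes took all members, the called or lowest-p genes of each list (some left out), the actins, PDGF and KATP partners, and the 5 genes most like Myh11 and Rgs5. Promoter sequences are RefSeq's (GRCm38.p6).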

Additional observations from a re-analysis of the deposited data

How the results depend on the processing

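Over all members and comparisons, 383 values kept their direction and side of the threshold under the settings that leave out no single library, 28 became called, 1 lost its call and 26 changed sign, and the cause was not tested. The calls gained in limma-voom were Abcc9 for TAC in WT; Acta2, Tagln, Notch3, Abcc9, Kcnj8 and Rgs5 for TAC in KO; Acta2 for KO against WT after sham; Myh11, Pdgfrb, Abcc9 and Kcnj8 after TAC; and Rgs5 in the interaction. With both libraries left out they were Abcc9 for TAC in WT, Tagln, Notch3, Abcc9, Kcnj8 and Rgs5 for TAC in KO, Myh11, Tagln, Pdgfrb, Abcc9 and Kcnj8 for KO against WT after TAC, and Abcc9 and Rgs5 in the interaction. The others were Abcc9 for TAC in KO in DESeq2 and for KO against WT after TAC with only the groups compared. Members called by limma-voom with sample weights were 1 for TAC against sham in WT, 6 for TAC against sham in KO, 1 for KO against WT after sham, 5 for KO against WT after TAC and 1 for the interaction. With KO sham replicate 1 and WT TAC replicate 1 left out together they were 1, 5, 0, 6 and 2. DESeq2 called 1 member for TAC against sham in KO, and a fit of only the groups compared called 2 for KO against WT after TAC. That last fit called 4510 genes in all. With each library left out in turn the counts ran from 0 to 1, 0 to 3, 0 to 0, 0 to 3 and 0 to 1. Calls over all genes ran from 1 to 1058, 0 to 7708, 0 to 39, 43 to 6585 and 0 to 1961 in these fits. In the interaction with all libraries, 0 genes of 15804 passed in edgeR, 1452 had an unadjusted p under 0.05, DESeq2 called 95 and limma-voom 5030. For TAC against sham in KO these were 0, 4878, 1783 and 9951. For KO against WT after TAC, 3219 genes were called, 1364 of them higher; limma-voom called 7615, and with library totals it was 515 higher of 3525.

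Replicate numbers are shared between groups. Within a surgery, same-numbered KO and WT libraries did not deviate together. The r of deviations from group means was −0.19 to 0.06 after sham and −0.14 to −0.05 after TAC. Of these libraries, 1 of 6 and 0 of 6 correlated best with their own number. Across surgeries, WT TAC and KO sham had r = 0.618 for replicate 1 and 0.328 for replicate 3. WT sham and KO TAC had −0.065 for replicate 1 and 0.061 for replicate 3. The numbers were not taken as pairs, and the cause of the likeness at replicate 1 was not tested. With a replicate block, 0 members were called for KO against WT after TAC, where Rgs5 was at −0.80 (adjusted p = 0.0657), and 2411 genes in all. The block also put Pdgfrb for TAC in KO at 0.03.

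The values that changed sign were uncalled with all libraries in edgeR, and some were not near 0, such as the Cnn1 interaction (−0.43) and Tagln for TAC in WT (0.52). With library totals, for which the median of all genes was 0.17, −0.19, 0.12, −0.24 and −0.40 in the order above, Pdgfrb was 0.12 for TAC in WT, Kcnj8 0.0016 and Rgs5 0.04 for KO against WT after sham, Cnn1 −0.068 and Pdgfrb −0.077 after TAC, and Tagln −0.071 and Pdgfrb −0.32 in the interaction. Pdgfrb for TAC in KO was 0.0055 with DESeq2 size factors and 0.0051 in DESeq2, and −0.01 in the interaction with no filter. In limma-voom, Myh11 was −0.33 and Kcnj8 −6e-05 for TAC in WT, Kcnj8 0.017 and Rgs5 0.14 for KO against WT after sham, Acta2 0.23 and Notch3 0.10 after TAC, and Cnn1 0.063 in the interaction. With both libraries left out, Myh11 was −0.41, Tagln −0.02 and Kcnj8 −0.04 for TAC in WT, Kcnj8 0.052 and Rgs5 0.16 for KO against WT after sham, Acta2 0.36 and Notch3 0.14 after TAC, and Cnn1 0.52 in the interaction.

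With single libraries left out, for TAC in WT the ranges that crossed 0 were −0.42 to 0.28 for Myh11, −0.03 to 0.78 for Tagln, −0.24 to 0.038 for Pdgfrb, −0.051 to 0.11 for Kcnj8 and −0.037 to 0.094 for Rgs5. For TAC in KO they were −0.76 to 0.049 for Acta2 and −0.073 to 0.049 for Pdgfrb. For KO against WT after sham they were −0.05 to 0.34 for Myh11, −0.10 to 0.15 for Notch3, −0.28 to 0.04 for Kcnj8 and −0.31 to 0.15 for Rgs5. After TAC they were −0.25 to 0.36 for Acta2, −0.17 to 1.08 for Cnn1 and −0.31 to 0.15 for Notch3. In the interaction they were −0.19 to 0.85 for Tagln, −1.42 to 0.43 for Cnn1, −0.06 to 0.24 for Pdgfrb, −0.34 to 0.13 for Notch3 and −0.57 to 0.078 for Abcc9. Tagln, at 5 to 21 counts per library, is the member most limited by depth.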
